A study of Mus musculus with 186 samples.

Results

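The promoters of Snrpb2, Snupn and Nvl are the promoters of the CpG mutant library that belong to genes of RNA processing, and they were chosen as the rows whose genomic region holds the annotated start of one of these genes. They make up 3 of the 12 promoters and 15 of the 60 rows of that library, 1 row for each of 5 steps of CpG mutation per promoter, out of 572 rows in the 8 activity tables of the series. The study used TrAC-seq, a parallel reporter assay in which pooled promoter sequences with transcribed barcodes are inserted by recombinase-mediated cassette exchange into the beta-globin locus of mouse embryonic stem cells, and the activity of a promoter is read as barcode RNA over barcode DNA. Wild-type (WT) cells and TKO cells, which lack the DNA methyltransferases Dnmt1, Dnmt3a and Dnmt3b, were measured in 3 replicates each. Both carry the same exchange site, in a locus that is silent outside the erythroid lineage, so activities describe the promoters at that site and not at their own genes. The comparisons ask how activity changes as CpGs outside transcription factor motifs are removed, and whether that change differs without DNA methylation.

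Snrpb2 encodes a protein of the U2 small nuclear ribonucleoprotein (snRNP), the particle of the spliceosome that recognizes the branch point of an intron. Snupn encodes snurportin 1, the adaptor that binds the trimethylated cap of spliceosomal snRNAs and carries assembled snRNPs back into the nucleus. Nvl encodes a nucleolar AAA-type ATPase that acts in the maturation of the large ribosomal subunit. Genes of this kind are expressed in nearly all cells from CpG island promoters, which are rich in CpG dinucleotides, usually lack a TATA box and are normally unmethylated. A CpG can serve a promoter as part of a factor's motif, and it is also the site that DNA methyltransferases modify.

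In mm9 coordinates the Snrpb2 insert was the 540 bp region chr2:142888472-142889011 on the plus strand, with the annotated gene start at 142888775 and a first exon that ends at 142888834. It holds 3 annotated transcript starts, all of Snrpb2. The Snupn insert was the 568 bp region chr9:56798379-56798946 on the plus strand, with the start at 56798685 and a first exon of 76 bp. The Nvl insert was the 551 bp region chr1:183074142-183074692 on the minus strand, with the start at 183074288 and a first exon of 107 bp that includes the start codon at 183074236 to 183074238. Each insert therefore spans upstream sequence, the first exon and the beginning of the first intron.

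The 250 bases upstream of each annotated start are shown because they hold a share of the CpGs of each insert and some of the motifs searched. Which CpGs each mutant lost was not analysed here. They were read from the mm9 genome 5′ to 3′ on the strand of the gene, and the capitals mark CpGs. Their positions are chr2:142888525-142888774 for Snrpb2, chr9:56798435-56798684 for Snupn and chr1:183074289-183074538 for Nvl.
Snrpb2: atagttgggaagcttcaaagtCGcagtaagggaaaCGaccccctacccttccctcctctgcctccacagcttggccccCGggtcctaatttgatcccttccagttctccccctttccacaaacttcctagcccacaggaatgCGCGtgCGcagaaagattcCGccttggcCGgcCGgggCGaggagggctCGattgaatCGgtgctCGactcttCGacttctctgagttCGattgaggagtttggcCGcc
Snupn: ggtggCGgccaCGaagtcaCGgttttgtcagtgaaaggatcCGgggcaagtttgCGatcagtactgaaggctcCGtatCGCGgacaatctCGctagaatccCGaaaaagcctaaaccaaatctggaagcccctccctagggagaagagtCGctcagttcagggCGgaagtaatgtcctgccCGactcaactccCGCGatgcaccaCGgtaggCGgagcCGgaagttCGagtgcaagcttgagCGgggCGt
Nvl: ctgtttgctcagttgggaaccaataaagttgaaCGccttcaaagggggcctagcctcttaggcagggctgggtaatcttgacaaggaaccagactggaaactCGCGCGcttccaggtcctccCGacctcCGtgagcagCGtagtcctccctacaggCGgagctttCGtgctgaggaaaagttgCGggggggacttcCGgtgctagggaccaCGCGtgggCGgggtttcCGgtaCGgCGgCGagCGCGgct

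The stretches held 16, 21 and 20 CpGs. CpGs were placed differently around the starts. In Snrpb2 16 of the 46 CpGs of the insert lay before the start and 30 at or after it. In Snupn 23 of 37 lay before the start, and in Nvl 26 of 37. The number counted in the mm9 region equalled the deposited number for each promoter. In the window from 250 bases before to 50 after the start, the 3 promoters had 23, 24 and 24 CpGs, against a median of 11 over 22375 annotated protein-coding promoters.

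Short motifs were searched on both strands of the same 300-base window. Each of the 3 promoters held GGGCGG, a core of the SP1 motif that 43.4% of all promoters had in a window of this length, and CCGGAAG, a core of the GABPA motif that 10.8% had. Both together were found in 6.67% of all promoters. In Snupn CCGGAAG began 33 bases before the start and GGGCGG 90 bases before it, and in Nvl they began 58 and 34 bases before it. In Snrpb2 GGGCGG began 5 bases before the start, and CCGGAAG occurred at base 3 and at base 22 of the transcript. CCAAT, the NFY motif, was present in Snupn and Nvl and in 37.9% of all promoters. GCGCATG (NRF1, 4.56%), CACGTG (MYC, 7.78%), AAGATGG (YY1, 6.74%) and TATAAA (the TATA box, 13.4%) did not occur in these windows of the 3 promoters. The motifs do not overlap each other in these sequences, and a match describes letters only, not a bound site. Each motif was searched as a fixed string of letters. Other forms of a motif, such as that of NRF1, were not searched and can be present. A missing string therefore does not show that a promoter lacks the motif, and for NRF1 in Snrpb2 this was left untested.

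Mutation removed 36 CpGs from Snrpb2, 33 from Snupn and 34 from Nvl, in steps of 8 or 9. Snrpb2 went from 46 CpGs through 37, 28 and 19 to 10, Snupn from 37 through 29, 21 and 13 to 4, and Nvl from 37 through 29, 20 and 12 to 3. The CpGs kept at the last step are those that the study assigned to motifs. The observed over expected CpG ratio (OE), which normalizes CpG number to base composition, fell from 0.933 to 0.262 in Snrpb2, from 0.820 to 0.114 in Snupn and from 0.831 to 0.0882 in Nvl. The G+C content fell with it, from 60.3% to 53.7%, from 56.5% to 50.7% and from 57% to 50.8%, which amounts to 1 G or C base lost per removed CpG in each promoter. CpG number, OE and G+C content thus changed together and their parts in the results cannot be told apart. The CpGs to mutate were drawn anew for each step, so the CpGs missing at a lower step need not be among those missing at the next.

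Activity is reported as log2 of the deposited value, which adds 0.05 to the RNA/DNA ratio of each barcode and takes the geometric mean per promoter variant, so it cannot fall below -4.32. WT replicates held 2169 to 2341 barcodes over the whole library, 393 to 456 of them on these promoters, and TKO replicates held 710 to 756, with 148 to 152 on these promoters. A value required 3 barcodes, and a variant was used where 2 or more replicates had one. By this filter 14 of the 15 variants could be used in WT cells and 11 of 15 in TKO cells. Fully mutated Snupn had no value in any replicate of either line. Snrpb2 at 75% mutation and Snupn at 25% and at 75% had a value in 1 TKO replicate each and entered no test. Replicates correlated with a Pearson r of 0.965 to 0.989 in WT and 0.975 to 0.987 in TKO cells across all variants. Nothing says that replicates came from separate cell pools, and a p-value here speaks of the scatter among the samples at hand, part of which can be technical.

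Unmutated Snrpb2 was the most active of the 11 promoters that could be ranked in WT cells, Nvl ranked 6 and Snupn 7. Snrpb2 had log2 activities of 1.39, 1.13 and 1.21 in the 3 replicates, a mean of 1.24 ± 0.13 (SD, n = 3). Nvl had -0.01, -0.62 and -0.13, a mean of -0.25 ± 0.33, and Snupn had -0.58, -1.02 and -1.18, a mean of -0.93 ± 0.31. Snrpb2 lay above the other 2 in every replicate, while the ranges of Nvl and Snupn overlapped across replicates but not within one.

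Pairs of unmutated promoters were compared within replicates by limma with Benjamini-Hochberg adjustment over all 55 pairs, of which 83.6% passed 0.05. The pairs share promoters and are not independent. The variance was nevertheless pooled over all of them, which gave these pairs the same SE of 0.26. The adjusted p-values are therefore too small to be taken at face value. Snrpb2 exceeded Snupn by 2.17 on the log2 scale (SE 0.26, adjusted p = 9.51e-13, limma) and also exceeded Nvl (Nvl minus Snrpb2 -1.50, SE 0.26, adjusted p = 1.83e-07, limma). Nvl exceeded Snupn by 0.67 (SE 0.26, adjusted p = 0.0142, limma), a call that was lost without replicate 3, where the difference was 0.48 and the adjusted p 0.246. Snrpb2 did not differ beyond the spread from its neighbours in the order, Mul1 (Mul1 minus Snrpb2 -0.18, 95% interval -0.70 to 0.34) and Cops8 (-0.30, -0.82 to 0.22). Nvl did not differ from Napg (Napg minus Nvl 0.12, -0.40 to 0.63), nor Snupn from Nsmce1 (Nsmce1 minus Snupn -0.10, -0.61 to 0.42).

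In TKO cells Snrpb2 was again the first, of 10 promoters, Nvl ranked 3 and Snupn 9. Snrpb2 had log2 activities of 1.23, 0.96 and 1.12 (1.10 ± 0.14), Nvl 0.21, 0.72 and 0.95 (0.63 ± 0.38) and Snupn -1.86, -1.78 and -1.73 (-1.79 ± 0.06). The replicates of the 3 promoters did not overlap here. All 3 pairs among them passed (limma, 86.7% of 45 pairs in all), with Nvl minus Snrpb2 at -0.48 (SE 0.21, adjusted p = 0.0333), Nvl minus Snupn at 2.42 (SE 0.21, adjusted p = 1.44e-17) and Snrpb2 minus Snupn at 2.89 (SE 0.21, adjusted p = 2.00e-21). The SE of 0.21 was pooled over dependent pairs as in WT cells, so these p-values are too small as well. The call of Nvl against Snrpb2 was lost without TKO replicate 1, where the difference was -0.20 and the adjusted p 0.285.

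Unmutated regions that hold the same annotated starts were also part of housekeeping library 2, a separately inserted and scaled pool measured in WT cells only. In it 60 regions passed the barcode filter. Whether the ends of these regions equal those of the mutant library was not compared. Here Nvl had log2 activities of 1.29, 0.67 and 1.31 (1.09 ± 0.37, rank 14), Snrpb2 0.34, 0.81 and 1.07 (0.74 ± 0.37, rank 16) and Snupn -0.21, -0.03 and -0.24 (-0.16 ± 0.12, rank 22). Snupn was the lowest of the 3 in both pools. Nvl and Snrpb2 stood in the opposite order in the 2 pools, but in library 2 their replicates overlapped, with 10 to 14 barcodes each against 168 to 188 for Snrpb2 in the mutant library. Levels were compared within a pool only, since the pools were scaled separately.

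Of a list of 184 genes of RNA processing and ribosome biogenesis, 6 had a promoter in library 2, and none was among the 10 rows of housekeeping library 1. Beside the 3 promoters these were Srfbp1, named for binding serum response factor and homologous to a ribosome biogenesis protein (3.92 ± 1.02), Trmt11, the catalytic subunit of a tRNA guanosine methyltransferase (3.91 ± 0.49), and Pwp2, a component of the small subunit processome (1.69 ± 0.13). These 3 were more active than Snrpb2, Snupn and Nvl. The median over the 6 promoters was 1.39, against 0.62 over the 32 regions with an annotated start and -2.93 over all 60, as a description without a test. The list was chosen with earlier results of these data known, and Srfbp1 and Trmt11 were the most active regions, so its median is no independent comparison. The median over all 60 is low because the regions without an annotated start had means of -3.55 or lower.

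**Figure D1:**
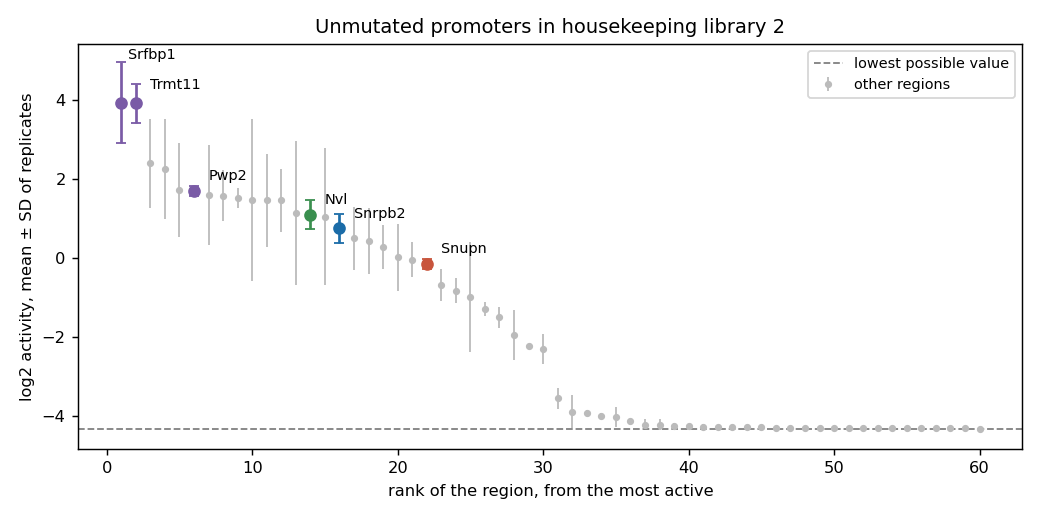
Mean log2 activity (vertical axis, with SD over replicates) of the 60 regions of housekeeping library 2 in WT cells, ordered by rank on the horizontal axis. Coloured points are the 6 promoters of the RNA-processing list, Srfbp1 and Trmt11 at ranks 1 and 2, Pwp2 at 6, Nvl at 14, Snrpb2 at 16 and Snupn at 22, and the dashed line is the lowest possible value of -4.32.

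Removing CpGs lowered the activity of all 3 promoters in WT cells. Relative to the unmutated promoter of the same replicate, 10 of the 11 tested variants of these promoters fell (limma one-sample test, Benjamini-Hochberg over 42 mutated variants of the library, of which 83.3% fell), and the eleventh, Nvl at 25% mutation, had a value below 0 that did not pass. The median change of the 11 was -2.61 on the log2 scale, against -1.82 over all 42. The share that fell was near that of the whole library, so the direction describes these promoters without setting them apart.

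Snrpb2 kept more than 50% of its activity at the first step and lost most of it at the next. Its log2 activities at 25% mutation were 0.96, 0.80 and 0.42, or 69.8% of the unmutated level (log2 change -0.52, SE 0.16, adjusted p = 0.0309, limma). Without replicate 2 the change was -0.61 (adjusted p = 0.0529) and without replicate 3 it was -0.38 (adjusted p = 0.123), so this call rests on those replicates. At 50% mutation, with 28 CpGs left, the values were -1.21, -1.35 and -1.88, all below every value of the previous step. The promoter then had 15.1% of its unmutated activity (-2.73, SE 0.18, adjusted p = 7.14e-05, limma). Values of -2.14, -2.36 and -2.36 at 75% mutation left 8.66%, and -3.65, -3.84 and -4.02 at full mutation left 2.95% (-5.08, SE 0.14, adjusted p = 2.03e-05, limma). This last value is close to the 2.11% that is the lowest share the assay could give for Snrpb2, so the loss at full mutation could not be measured much below it.

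Snupn lost most of its activity at the first step. With 29 CpGs its log2 activities were -2.65, -2.46 and -2.50, all below the 3 unmutated values, and it kept 32.7% (-1.61, SE 0.20, adjusted p = 0.000846, limma). With 21 CpGs the values of -3.16, -3.60 and -3.84 left 16.4% (-2.61, SE 0.14, adjusted p = 4.83e-05). With 13 CpGs the values were -3.92, -3.89 and -3.83, which left 12.9% (-2.95, SE 0.19, adjusted p = 6.29e-05). The lowest share that could be measured for Snupn in WT cells was 9.50%, since its unmutated activity was lower than that of Snrpb2.

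Nvl was below its unmutated level from 50% mutation on. At 25% mutation its log2 activities of -1.46, -0.24 and -0.82 overlapped the unmutated ones, the single replicates kept 36.5%, 131% and 62%, and the mean of 66.7% did not differ from the unmutated level (-0.58, 95% interval -1.54 to 0.37, adjusted p = 0.193, limma). The replicate above the unmutated level rested on 6 barcodes, and without that replicate 2 the change was -1.07 with an adjusted p of 0.0205. At 50% mutation the values of -1.48, -2.13 and -1.92 left 33.2% (-1.59, SE 0.15, adjusted p = 0.000263). At 75% mutation Nvl kept 19.3% (values of -2.52, -2.79 and -2.57, -2.37, SE 0.15), and at full mutation 8.92% (-3.72, -3.79 and -3.71, -3.49, SE 0.17, adjusted p = 4.78e-05), with 5.96% the lowest share possible.

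**Figure D2:**
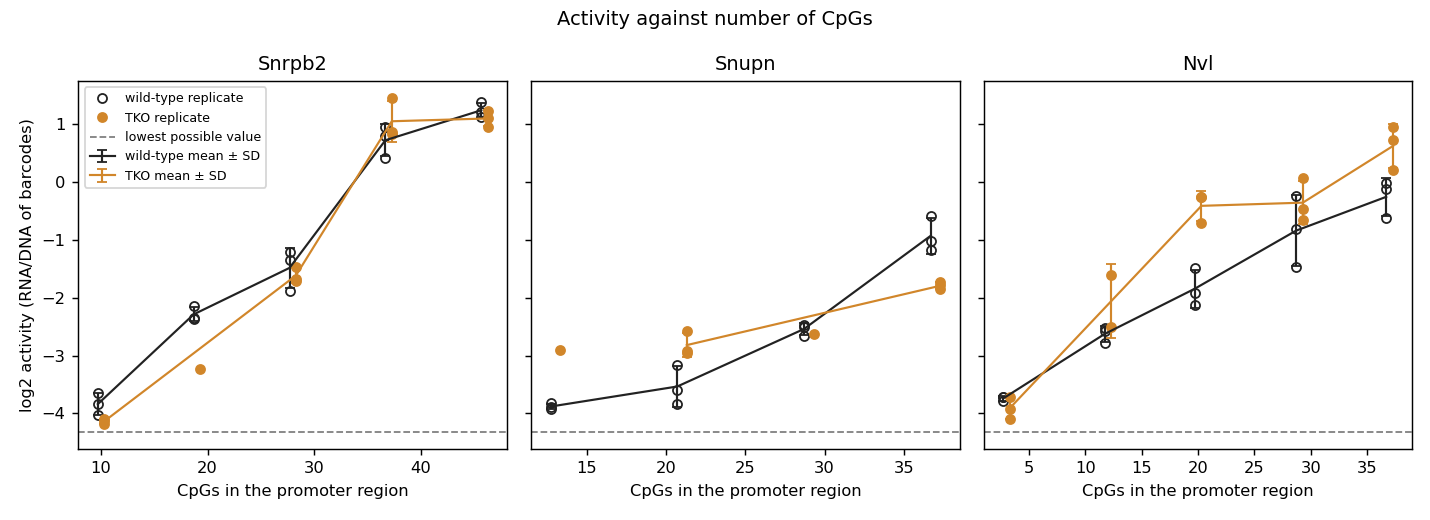
Log2 activity (vertical axis) against the number of CpGs left in the promoter region (horizontal axis), 1 panel per promoter. Open circles are WT and filled circles TKO replicates, lines join the means with SD of variants that passed the barcode filter, and the dashed line is the lowest possible value of -4.32. The WT values of Snrpb2 go from a mean of 1.24 at 46 CpGs to -1.48 at 28 and -3.84 at 10, and the TKO values of Nvl at 20 CpGs lie above the WT values.

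Neighbouring steps were compared within replicates by limma over the 44 such pairs of the library in WT cells. Of these 59.1% passed as lower, as did 8 of the 11 pairs of these promoters, and all 11 had a difference below 0. The largest difference of the 11 was that of Snrpb2 from 25% to 50% mutation, -2.21 (SE 0.10, adjusted p = 0.000138, limma). For Snrpb2 all 4 pairs passed, the first with -0.52 (SE 0.13, adjusted p = 0.0262), lost without replicate 3 (-0.38, adjusted p = 0.105). For Snupn the pair of 75% and 50% did not pass (-0.35, 95% interval -0.83 to 0.14), where the level was near the lowest possible. For Nvl the first 2 pairs did not pass, 25% against 0 (-0.58, -1.60 to 0.43) and 50% against 25% (-1.01, -2.03 to 0.02), while 75% against 50% (-0.78, SE 0.13, adjusted p = 0.0063) and 100% against 75% (-1.11, SE 0.10, adjusted p = 0.0010) did. The pair of 50% and 25% of Nvl passed without replicate 1 (-1.50, adjusted p = 0.00392), and the pair of 25% and 0 without replicate 2 (-1.07, adjusted p = 0.00985).

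Beside the other promoters of the library that passed the filter, the 3 promoters stood within the range at 25%, 50% and 75% mutation in WT cells. At 25% mutation the other 8 promoters kept 3.98% to 162% of their activity with a median of 49.4%, at 50% mutation 7 others kept 3.07% to 111% with a median of 42.8%, and at 75% mutation 8 others kept 3.11% to 51.7% with a median of 26.5%. Snrpb2 ranked 4, Nvl 5 and Snupn 9 of 11 at 25% mutation. At full mutation Snrpb2 kept the smallest share of 10 promoters, 2.95% against 3.23% to 31.7% in the 8 others, a comparison that was not tested and in which the lowest measurable share differs between promoters with their unmutated level.

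**Figure D3:**
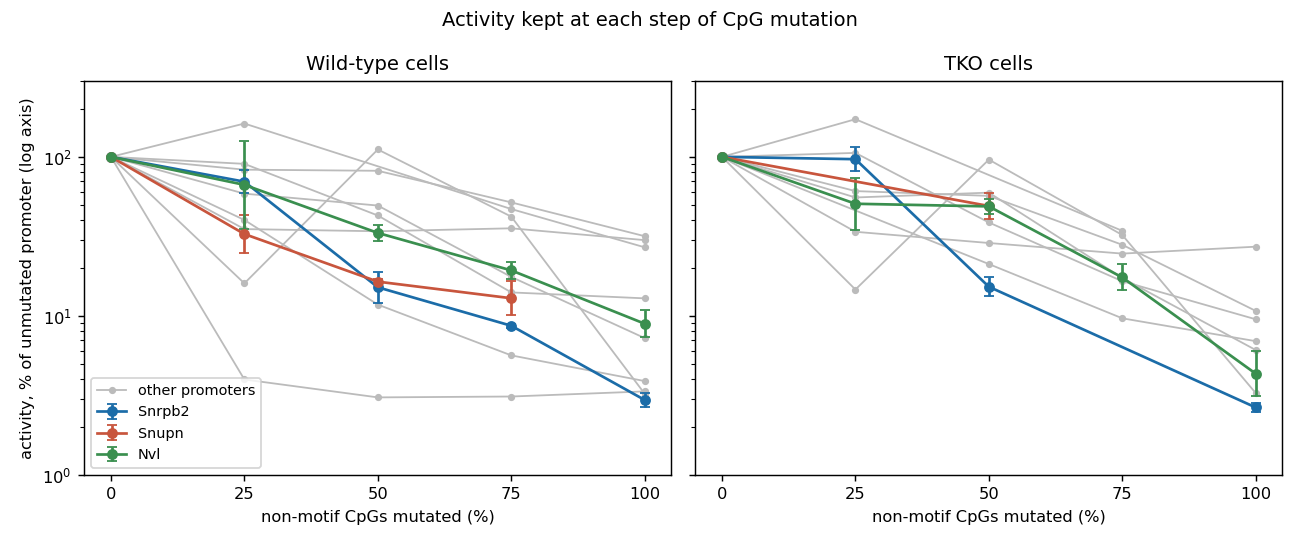
Activity as a percent of the unmutated promoter (vertical log axis, mean with the SD of log2 values) at each step of non-motif CpG mutation (horizontal axis), in WT cells on the left and TKO cells on the right. Grey lines are other promoters, and lines pass over steps that did not pass the barcode filter. Snrpb2 fell from 69.8% to 15.1% between 25% and 50% mutation in WT cells and from 96.7% to 15.2% in TKO cells.

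Losses were also measured in TKO cells, in which no CpG can be methylated by these enzymes. Of 8 tested variants of the 3 promoters, 7 passed as lower than the unmutated promoter (limma, Benjamini-Hochberg over 33 variants, of which 87.9% did). The median of the 8 was -1.78, against -1.84 over all 33. In this test limma pooled the variance fully, so every variant of these promoters with 3 values had the same SE of 0.22. Its p-values therefore do not reflect the scatter of single variants, such as Nvl at 25% mutation with an SD of 0.54. Snrpb2 at 25% mutation had log2 activities of 1.46, 0.83 and 0.87, which overlapped the unmutated ones, and kept 96.7% (-0.05, 95% interval -0.50 to 0.40, adjusted p = 0.83). At 50% mutation it had -1.71, -1.67 and -1.46, all far below the step before, and kept 15.2% (-2.71, SE 0.22, adjusted p = 4.03e-17, limma). At full mutation it had -4.09, -4.18 and -4.14, 0.14 to 0.23 above the lowest possible value, and kept 2.65% (-5.24, SE 0.22, adjusted p = 4.73e-30). The single TKO value of Snrpb2 at 75% mutation was -3.22, from 3 barcodes.

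Nvl at 25% mutation had log2 activities of -0.47, 0.06 and -0.66 in TKO cells and at 50% mutation of -0.70, -0.26 and -0.26. The levels of the 2 steps overlapped (difference -0.06, 95% interval -0.57 to 0.46), and both were below the unmutated level, at 50.7% (-0.98, SE 0.22, adjusted p = 6.45e-05, limma) and 48.8% (-1.03, SE 0.22, adjusted p = 2.96e-05). At 75% mutation only 2 replicates had 3 barcodes, with -2.51 and -1.61, which left 17.4% (-2.52, SE 0.27, adjusted p = 1.24e-12). At full mutation -3.92, -3.71 and -4.09 left 4.32% (-4.53, SE 0.22, adjusted p = 3.18e-27). Snupn at 50% mutation had -2.58, -2.92 and -2.96, all below its unmutated values, and kept 49.1% (-1.03, SE 0.22, adjusted p = 3.23e-05). Its single TKO values were -2.63 at 25% and -2.91 at 75% mutation, from 3 barcodes each.

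Neighbouring steps could be compared for 6 pairs of these promoters in TKO cells. All 6 had a difference below 0, and 4 of them passed as lower (limma over 35 pairs, of which 54.3% did). Snrpb2 from 25% to 50% again gave the largest of these, -2.67 (SE 0.20, adjusted p = 0.000854), and the pair of 25% and 0 did not pass (-0.05, 95% interval -0.43 to 0.33). Nvl passed from 0 to 25% (-0.98, SE 0.24, adjusted p = 0.0248), a call that was lost without replicate 1 (-1.13, adjusted p = 0.0752) and without replicate 2 (-1.14, adjusted p = 0.098), from 50% to 75% (-1.57, SE 0.19, adjusted p = 0.00817) and from 75% to 100% (-1.76, SE 0.24, adjusted p = 0.0104). The change of Nvl from 0 to 25% is the same as its loss at 25% above, where the fully pooled variance gave a smaller adjusted p.

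The level of each variant was then compared between the cell lines. Of the 11 variants of these promoters that passed in both lines, 4 differed, 3 higher and 1 lower in TKO cells, against 27.5% of the 51 variants tested by limma with Benjamini-Hochberg adjustment. Unmutated Snupn was lower in TKO cells, with no overlap between the groups (TKO minus WT -0.87, SE 0.16, adjusted p = 0.032), and Snupn at 50% mutation was higher (0.72, SE 0.20, adjusted p = 0.0445). Unmutated Nvl was higher in TKO cells (0.88, SE 0.24, adjusted p = 0.0445) and so was Nvl at 50% mutation (1.43, SE 0.21, adjusted p = 0.0181, a 2.70-fold difference), in both without overlap of the replicates. None of the 4 Snrpb2 variants passed, with differences of -0.14 (95% interval -0.43 to 0.14) unmutated, 0.33 (-0.20 to 0.86) at 25%, -0.13 (-0.59 to 0.33) at 50% and -0.30 (-0.58 to -0.02, adjusted p = 0.123) at full mutation. Nvl at 25% (0.48, -0.34 to 1.31), 75% (0.57, -0.14 to 1.28) and 100% mutation (-0.17, -0.45 to 0.12) did not pass either.

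These calls between the lines were near the threshold and depended on single samples. With each sample left out in turn, Nvl at 50% mutation passed in 2 of 6 fits (differences of 1.29 to 1.61, adjusted p 0.00675 to 0.0818), unmutated Snupn in 2 of 6 (-0.99 to -0.69, 0.0206 to 0.113), unmutated Nvl in 1 of 6 (0.69 to 1.09, 0.0172 to 0.143) and Snupn at 50% in 1 of 6 (0.56 to 0.90, 0.0308 to 0.143). None of the 4 passed without WT replicate 2 or 3 or TKO replicate 2 or 3. Centring each sample on its median moved all differences by -0.14 on average, and all 4 passed (limma, adjusted p of 9.13e-06 to 0.0436). That fit pooled the variance more strongly, with SEs of 0.19 to 0.24 for these promoters against 0.12 to 0.34 in the main fit. Its p-values therefore reflect less of the scatter of single variants. With a further 0.05 added before the logarithm or with barcode weights 1 of the 11 passed (Nvl at 50%), and with the replicate block or at least 10 barcodes 0 of 11 and 0 of 5 did, with 5 and 2 at an unadjusted p under 0.05. Barcodes behind these values were few in TKO cells, 3 to 5 for unmutated Snupn against 24 to 29 in WT cells, 7 or 8 against 16 to 22 for Snupn at 50%, 9 to 11 against 14 to 30 for unmutated Nvl and 7 or 8 against 10 to 21 for Nvl at 50%. Their part in the differences was not tested.

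**Figure D4:**
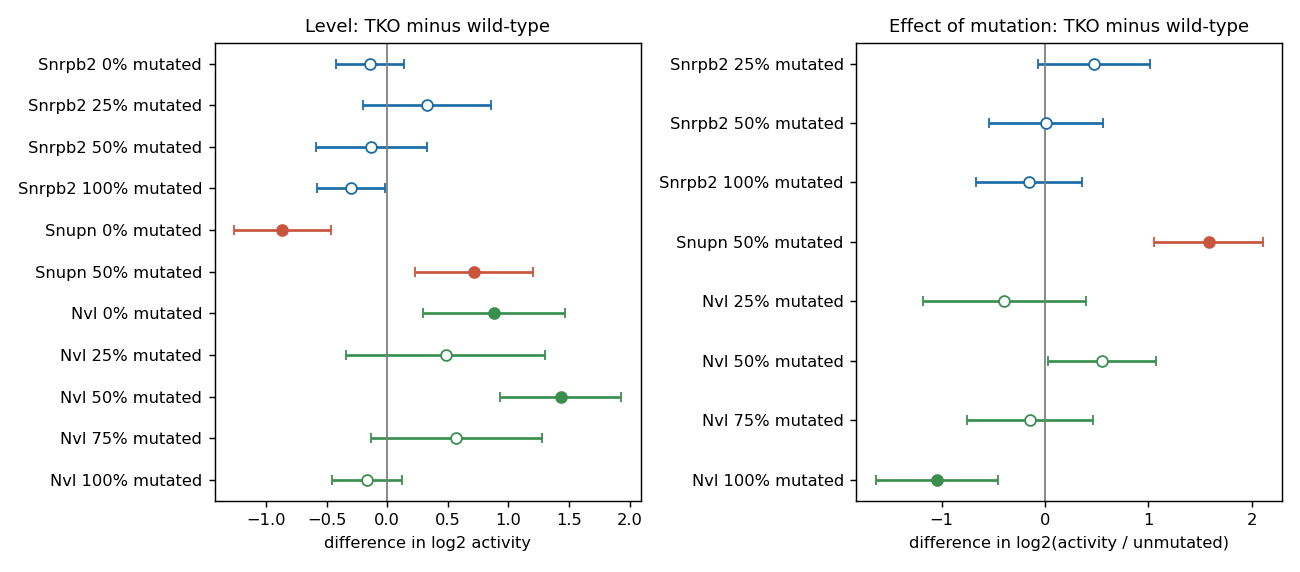
Differences TKO minus WT with 95% intervals from limma (horizontal axes, log2 scale) for the variants of Snrpb2, Snupn and Nvl. The left panel shows log2 activity and the right panel log2 activity relative to the unmutated promoter, filled points have an adjusted p under 0.05, and the filled points are Snupn at 0 and 50% and Nvl at 0 and 50% on the left and Snupn at 50% and Nvl at 100% on the right.

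Whether the effect of mutation differed between the lines was tested on activities relative to the unmutated promoter, which removes any difference in scale between the pools. Of 33 variants tested by limma, 12.1% passed, and 2 of the 8 of these promoters did. Snupn at 50% mutation kept 16.7%, 16.8% and 15.7% in the WT replicates and 60.5%, 45.6% and 42.9% in the TKO replicates, without overlap. The difference was 1.58 (SE 0.25, adjusted p = 0.000184), and it passed in 6 of 6 fits with a sample left out (1.43 to 1.68, adjusted p 3.68e-05 to 0.0025). In TKO cells the unmutated reference rested on 3 to 5 barcodes and the mutated variant on 7 or 8. It could not be tested with at least 10 barcodes, and leaving out samples does not test the dependence on so few. Since the unmutated Snupn was lower in TKO cells, both the reference and the mutated variant contributed, and the lowest share that could be measured was 17.3% in TKO against 9.50% in WT cells. A loss to the 16.4% of WT cells could thus not have been recorded in TKO cells.

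Nvl at full mutation kept 7.7%, 11.1% and 8.3% in WT and 5.7%, 4.6% and 3.0% in TKO cells, without overlap (difference -1.04, SE 0.28, adjusted p = 0.0171). The call was lost without WT replicate 2 (-0.88, adjusted p = 0.149), without TKO replicate 3 (-0.79, adjusted p = 0.119), with barcode weights (adjusted p = 0.0907) and with the replicate block (adjusted p = 0.121). The fully mutated Nvl was at similar levels near the lowest possible value in both lines, -3.74 ± 0.04 and -3.91 ± 0.19, and the lowest measurable share was 5.96% in WT and 3.24% in TKO cells. The unmutated Nvl was itself higher in TKO cells, and a larger effect of mutation is not shown. For Snrpb2 the difference was 0.47 at 25% (95% interval -0.07 to 1.01), 0.01 at 50% (-0.54 to 0.56) and -0.16 at 100% mutation (-0.67 to 0.36), and none passed. Nvl at 25% (-0.40, -1.18 to 0.39), 50% (0.55, 0.03 to 1.08, adjusted p = 0.158) and 75% (-0.15, -0.75 to 0.46) did not pass.

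As a single number per promoter, the slope of log2 activity on the number of CpGs was fitted in each replicate with at least 4 steps. In WT cells Snrpb2 gained 0.146, 0.145 and 0.147 per CpG (0.146 ± 0.00088), Snupn 0.132, 0.122 and 0.116 (0.123 ± 0.0078) and Nvl 0.0994, 0.105 and 0.105 (0.103 ± 0.0033). In TKO cells Snrpb2 gained 0.164, 0.154 and 0.156 per CpG and Nvl 0.121, 0.124 and 0.139, above the WT values in every replicate, and Snupn had too few steps. TKO minus WT was 0.025 for Nvl (SE 0.0065, adjusted p = 0.00151, limma over 10 promoters, of which 40% passed) and 0.011 for Snrpb2 (SE 0.0065, 95% interval -0.0016 to 0.024, adjusted p = 0.169), which passed with a trended robust prior (adjusted p = 0.0087, limma). The variance was pooled almost fully over the promoters, which gave both the same SE. These p-values therefore do not reflect the scatter of single promoters, such as Snrpb2 with SDs of 0.00088 in WT and 0.0051 in TKO cells. The Nvl slopes include the unmutated variant, which was higher in TKO cells (0.63 against -0.25), and the fully mutated one, near the lowest possible value in both lines. A larger effect per CpG is therefore not shown for Nvl. The TKO slope of Snrpb2 lacks the step of 75% mutation, and over the steps measured in both lines, an alternative chosen after seeing the data, the difference of Snrpb2 was 0.0089. The relation was not a straight line for Snrpb2, whose change between 37 and 28 CpGs was larger than those on either side.

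Methylation of the inserted promoters was given for 58 clones of WT cells, 10 of them with these promoters, as the mean over the CpGs of the insert. The read coverage is unknown, so no interval can be given, and no test was made. In 3 clones with unmutated Snrpb2 methylation was 0.0183%, 0.0205% and 0.108%. It was 0.917% and 8.54% in 2 clones with Snrpb2 at 50% mutation and 33.8% in 1 clone at full mutation. Nvl had 34.3% in 1 clone at 75% mutation and 63.1% and 77.2% in 2 clones at full mutation, and Snupn had 34.5% in 1 clone at 25% mutation.

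Within Snrpb2 the clones with fewer CpGs were the more methylated ones, and the same held between the 2 steps of Nvl. At 50% mutation Snrpb2 was down to 15.1% of its activity in the WT pool and to 15.2% in TKO cells, and its clones had under 10% methylation. Snupn at 25% mutation kept 32.7% in the WT pool, and its 1 clone had 34.5% methylation. At 50% mutation Snupn kept 16.4% in WT and 49.1% in TKO cells, and it had no clone at this step. The part of methylation in these losses was not tested. The clones of other promoters covered 0.0184% to 22.8% without mutation (10 clones, median 1.29%), 0.0168% to 78.3% at 25% mutation (7 clones, median 5.16%), 0.0207% to 82.4% at 50% mutation (14 clones, median 4.08%), 0.0307% to 89% at 75% mutation (14 clones, median 18.3%) and 38.9% to 70.2% at full mutation (3 clones, median 66.5%). The Snupn clone at 25% and the Nvl clone at 75% mutation lay within the ranges and above the medians of their steps. These medians count clones, and Cops8 alone gave 10 of the 14 clones at 50% and 7 of the 14 at 75% mutation. By promoter at 75% mutation, the Nvl clone lay above Cops8 (mean 8.35%) and Tusc3 (9.89%). It lay below Napg (52%), Rrm1 (64.8%), Mul1 (66.7%) and Usf1 (80%). At full mutation the Snrpb2 clone lay below the range of the 3 other clones, from 2 promoters, and 1 Nvl clone above it. Clones were not measured for activity in these tables, and methylation and activity were compared by step only.

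**Figure D5:**
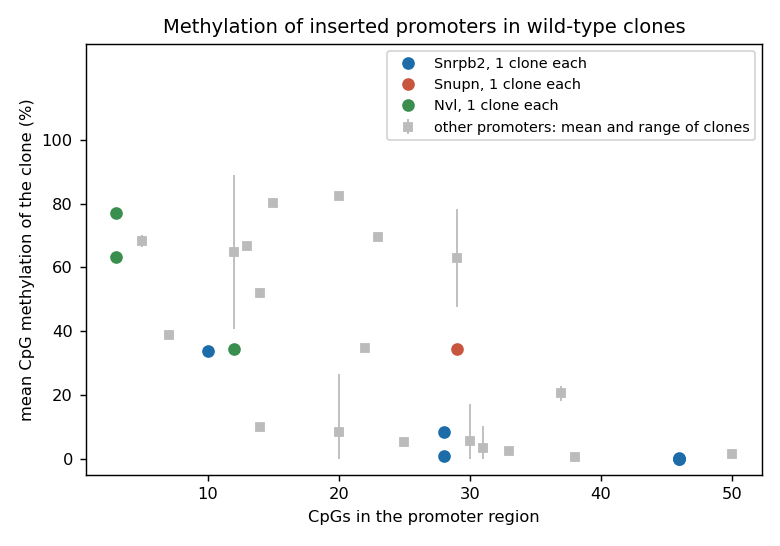
Mean CpG methylation of inserted promoters in WT clones (vertical axis, percent) against the number of CpGs in the region (horizontal axis). Each coloured point is 1 clone of Snrpb2, Snupn or Nvl, and the 3 Snrpb2 clones at 46 CpGs overlap near 0, while grey squares show the mean and range of the clones of other promoters at each step. Values of the 3 promoters go from 0.0183% at 46 CpGs to 77.2% at 3 CpGs.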

How the data were processed

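Barcodes were counted in RNA and DNA of each replicate by the authors, scaled to the smaller total, and kept with more than 20 DNA reads. The deposited activity is a ratio, RNA over DNA reads plus 0.05, averaged geometrically per variant, and activity relative to the unmutated variant was also deposited as a ratio. The authors assigned the barcodes of mutants by string distance. CpG number, OE (a deposited ratio) and G+C content (a deposited percent) describe each variant, and clone methylation is a deposited fraction, printed here in percent. The files use mm9.

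The members and gene lists were chosen with earlier results of these data known. All variants of the 3 promoters are named. Log2 activities (minimum 3 barcodes, 2 or more replicates) entered limma 3.58.1, run in R 4.3.3 (two-sided, Benjamini-Hochberg over the library, threshold 0.05), one-sample on differences within a replicate and two-group between the cell lines, where the study used neither. The one-sample and two-group fits were also run on simulated independent values with known changes. These had no lowest value, missing replicates, shared reference or dependent pairs, so they do not cover such features of the data. Alternatives were a minimum of 10 barcodes, a further 0.05 before the logarithm, other priors, barcode weights, a replicate block, median centring, OE in place of CpG number, and each sample left out. The authors' ChIP-seq data were not analysed here.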

Additional observations from a re-analysis of the deposited data

Results flagged for a closer look

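The effect of mutation differed between the cell lines in 3 results by its own test in limma. The share that Snupn kept at 50% mutation was larger in TKO than in WT cells (difference 1.58 on the log2 scale), without overlap of the 3 replicates of each line. The lowest share measurable for Snupn in TKO cells was 17.3%, above the 16.4% kept in WT cells. A loss as large as that in WT cells could therefore not have been recorded in TKO cells. Unmutated Snupn, the reference of these shares, had only 3 to 5 barcodes in TKO cells, and the result could not be tested with at least 10. The share that Nvl kept at full mutation was smaller in TKO cells (-1.04), but both lines were near the lowest possible value after mutation and the unmutated level was higher in TKO cells, so a larger effect of mutation is not shown. Of 10 alternatives 6 kept this call, which was lost without WT replicate 2, without TKO replicate 3, with barcode weights and with the replicate block. The slope of Nvl per CpG was steeper in TKO cells by 0.0249. It includes the same unmutated and fully mutated variants, so a larger effect per CpG is not shown by it either. Barcodes per variant were fewer in TKO cells, and their part in these differences was not tested. Groups of 3 are too small for the check for single outlying samples.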

How the results depend on the processing

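Of the tests in WT cells, the losses, the comparisons of neighbouring steps and the pairs of unmutated promoters kept their number of calls within 1.5 times of the reported one under every alternative run, except that with at least 10 barcodes only 4 neighbouring pairs of Snrpb2, Snupn and Nvl could be tested, and all 4 passed. With at least 10 barcodes, which removes most TKO variants, the numbers of calls were 11 of 13 losses in TKO cells (2 of 3 for these promoters), 9 of 14 neighbouring pairs (1 of 2), 19 of 21 unmutated pairs (9 of 11), 2 of 27 levels between the lines (0 of 5), 0 of 13 differences in loss (0 of 3) and 2 of 5 slopes. At an unadjusted p under 0.05 the 0 of 13 stood for 2 and the 0 of 5 for 2.

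Between the lines, 14 of 51 levels passed, but 1 with a further 0.05 added and 1 with barcode weights, in both cases Nvl at 50% mutation (1 of 11 for these promoters). For the difference in loss, 4 of 33 passed, and 1 of 33 with barcode weights (1 of 8 for these promoters). With samples left out in turn, the levels between the lines gave 0 to 7 calls (0 to 3 for these promoters), the differences in loss 2 to 8 (1 to 3), and the neighbouring pairs in TKO cells of these promoters 1 to 4. The cause was not tested.

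With the replicate number as a block, 0 of 51 levels between the lines passed (0 of 11 for these promoters, with 17 of 51 at an unadjusted p under 0.05), 1 of 33 differences in loss (1 of 8, Snupn at 50%) and 4 of 10 slopes. The numbers were not taken as pairing, since the deviations of same-numbered samples correlated with 0.15, 0.03 and 0.43. Losses and neighbouring steps were compared within replicates. Without the replicate block that this implies, neighbouring pairs of these promoters in WT cells gained Nvl 50% against 25% (-1.01, adjusted p = 0.0174).

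Some differences that had not passed changed sign when a sample was left out. In WT cells these were Mul1 minus Snrpb2 (-0.40 to 0.21), Napg minus Nvl (-0.015 to 0.26) and Nsmce1 minus Snupn (-0.33 to 0.29), and in TKO cells the change of Snrpb2 from 0 to 25% (-0.19 to 0.051) and of Nvl from 25% to 50% (-0.28 to 0.082). Between the lines they were the level of Snrpb2 at 50% (-0.33 to 0.0041), and the difference in loss of Snrpb2 at 50% (-0.17 to 0.13) and of Nvl at 25% (-0.83 to 0.091). The last passed without WT replicate 1, at -0.83 with an adjusted p of 0.042.

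A fit without a barcode minimum was not run, because activities below 3 barcodes are missing. In library 2 the mean with a replicate left out was 0.98 to 1.30 for Nvl, 0.58 to 0.94 for Snrpb2 and -0.23 to -0.12 for Snupn. Many TKO variants rest on fewer than 10 barcodes.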
